A study of Drosophila melanogaster with 3 samples.

Results

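The genes that encode the general transcription machinery were examined for the presence of CG13775 at their own promoters. The set comprised 83 of the 13968 protein-coding genes of the Ensembl BDGP6 annotation, chosen by symbol. The set was proposed with results of these data known. It held 16 genes of TFIID (the Taf genes and Tbp), 12 of the other TFII factors (symbols starting with TfII, with Ssl1, hay and Xpd), 25 of Mediator (MED genes) and 30 of the RNA polymerases (7 Polr1, 13 Polr2 and 10 Polr3 genes).

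CG13775 had been mapped by chromatin immunoprecipitation and sequencing in Drosophila melanogaster. The 3 libraries formed a single group and were labelled as biological replicates 1, 2 and 4. All came from whole embryos of both sexes, aged 0 to 24 hours, of the strain CG13775-GFP, which stably expresses CG13775 with green fluorescent protein (GFP) at its C terminus. Chromatin was fragmented by sonication to 200 to 800 bp and precipitated with an antibody against GFP. Each library therefore averages over every embryonic tissue and stage, all libraries carry the tag, and no untagged or input library was analysed here. The data are lists of regions with a signal value from the authors' peak caller and a summit, the position of highest enrichment. The pooled list and each replicate list held 30000 regions. The optimal list, which the authors obtained after comparing replicates, held 5862 peaks, and these were the 5862 pooled regions of highest signal. A gene is called bound below when a peak of the optimal list had its summit no more than 500 bp from an annotated transcript start of the gene. Signal has no stated scale and is compared only within a list, where rank 1 is the highest. Read depth is unknown, so intervals of shares (exact, Clopper-Pearson, 95%) cover counting error only.

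RNA polymerase II starts transcription at a promoter on which general factors assemble. TFIID recognises the core promoter through TBP and the TBP-associated factors (TAFs). TFIIA and TFIIB then stabilise TBP on DNA and bring in the polymerase, and TFIIE and TFIIH open the DNA. Mediator relays signals from sequence-specific activators to this assembly, whereas RNA polymerases I and III transcribe ribosomal RNA and small RNAs. Most of these proteins are needed in every dividing cell. Broadly expressed genes of the fly often start close to a divergent neighbour.

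The DNA under 5 strong peaks is shown first. Only windows with at most 30 transcribed bases are printed, so that of Ssl1, at a signal of 3233, is not among them. The windows below span 50 bp to either side of the optimal summit at 5 of the bound genes of highest signal, read 5′ to 3′ on the plus strand of the RefSeq Release 6 (dm6) genome. Capitals mark any of the 6 words searched, read on either strand (TATCGATA of the element DRE, GGTCACAC of Motif 1, TGCGGATG, which was taken up with earlier results of these data known, TATAAA of the TATA box, the E-box CAGCTG and the GAGA word GAGAG). They lie at chr2L:9763296-9763396 (Taf11), chr3L:21031535-21031635 (Polr3E), chr3R:5654953-5655053 (MED27), chr3R:14125610-14125710 (Polr2B) and chr3R:18188839-18188939 (MED17).
Taf11: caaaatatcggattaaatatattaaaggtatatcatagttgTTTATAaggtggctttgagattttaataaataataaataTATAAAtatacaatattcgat
Polr3E: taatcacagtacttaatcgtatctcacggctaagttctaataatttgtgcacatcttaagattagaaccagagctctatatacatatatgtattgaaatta
MED27: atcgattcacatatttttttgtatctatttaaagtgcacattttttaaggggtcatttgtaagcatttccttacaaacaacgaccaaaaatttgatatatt
Polr2B: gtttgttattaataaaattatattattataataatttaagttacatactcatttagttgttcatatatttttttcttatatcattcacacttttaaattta
MED17: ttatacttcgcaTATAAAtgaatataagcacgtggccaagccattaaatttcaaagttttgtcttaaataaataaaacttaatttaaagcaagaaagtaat
All 5 windows are rich in A and T. Their GC content was 18.8% at Taf11, 29.7% at Polr3E, 26.7% at MED27, 13.9% at Polr2B and 24.8% at MED17. The median at the peaks of protein-coding starts was 33.7%. The only searched word in them was TATAAA, at Taf11 and MED17.

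CG13775 peaks were found at the starts of 39 of the 83 machinery genes (47%, interval 35.9 to 58.3). Over all protein-coding genes the share was 26.2%. Bound genes occurred in each complex at a like share: 8 of 16 in TFIID (50%, 24.7 to 75.3), 6 of 12 among the other TFII factors (50%, 21.1 to 78.9), 11 of 25 in Mediator (44%, 24.4 to 65.1) and 14 of 30 in the polymerases (46.7%, 28.3 to 65.7). Within the polymerases, 2 of 7 Polr1 genes, 8 of 13 Polr2 genes and 4 of 10 Polr3 genes were bound. The intervals of the 4 complexes overlap widely, and all but that of the polymerases reach below the background share. No test was made.

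The pooled list, which also holds background regions, had a region at the start of 71 of the 83 genes, 85.5%, beside 54.0% of all protein-coding genes. Of the 44 genes that were not bound, 32 had such a weaker region. Their signal ranged from 41.5 to 150 and their rank from 5906 to 28302. The other 12 had no pooled region within 500 bp of a start: Taf3, TfIIA-S-2, TfIIFbeta, MED11, MED15, MED18, MED24, Polr1A, Polr1H, Polr2L, Polr3B and Polr3I. Of these, 8 had a region in the full list of replicate 4, and Polr2L, Polr3B and Polr3I had none in any list. These lists are cut at a fixed length, so a gene without a region is not shown to lack the protein.

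Replicates gave nearly the same count. When each replicate list was shortened to the 5862 regions with the highest signal (the restricted lists), 38 machinery genes were bound in replicate 1, 39 in replicate 2 and 41 in replicate 4. The mean share was 47.4% ± 1.84 (SD, n = 3). All protein-coding genes were bound at 25.0%, 25.5% and 27.4% in the same lists. In every replicate the machinery genes therefore had the higher share. The 3 lists had 34 machinery genes in common, and 45 were bound in at least 1 (75.6% in common). Over all protein-coding genes, 2847 of 4491 were in common (63.4%). By complex, replicates 1, 2 and 4 gave 8, 8 and 7 TFIID genes, 5, 6 and 7 other TFII genes, 11, 13 and 11 Mediator genes, and 14, 12 and 16 polymerase genes. The complexes do not keep an order from replicate to replicate.

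**Figure D1:**
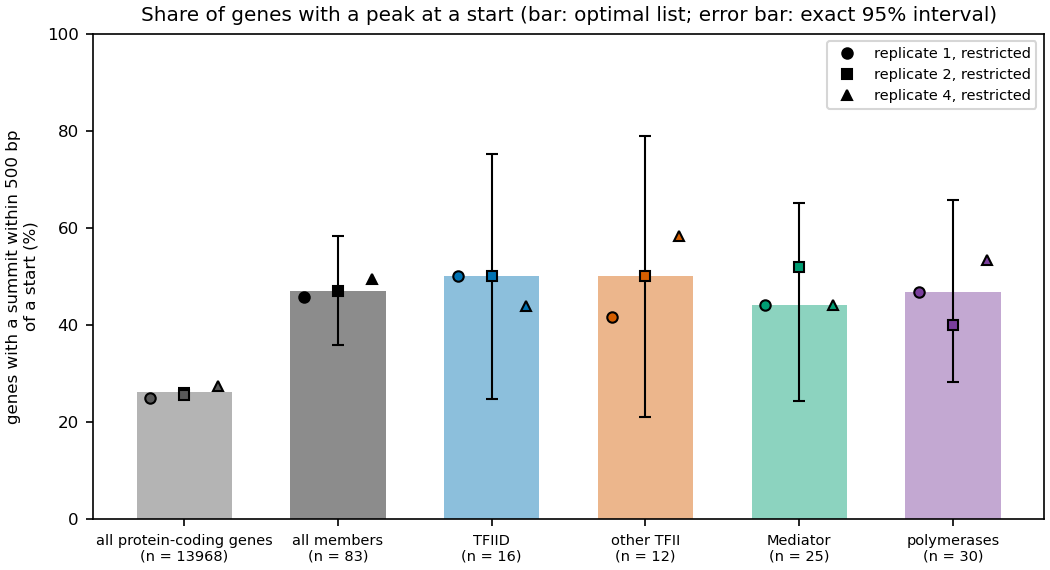
Share of genes with a summit within 500 bp of a start, in percent, for all protein-coding genes, all 83 machinery genes and the 4 complexes. Bars are the optimal list, error bars its exact 95% interval, and symbols the restricted lists of replicates 1, 2 and 4. The 83 genes lie at 45.8% to 49.4% in the replicates against 25.0% to 27.4% for all protein-coding genes.

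TFIID carried the highest peak of the whole set. Taf11, a histone-fold TAF that pairs with Taf13, had an optimal signal of 3370 at rank 9 of 5862. Its signal was 1213, 847 and 1328 in replicates 1, 2 and 4, at ranks 9, 6 and 13. The rank was thus near the top in each library. The peak (dm6 chromosome 2L, 9763008 to 9763660) has its summit in the intergenic stretch between Taf11 (FBgn0011291) and und, a methionine aminopeptidase gene transcribed the other way. That summit lay 84 bp upstream of Taf11 and 23 bp upstream of und, so it is nearer to und than to the machinery gene.

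The other leading TFIID peaks were much lower in signal within the same list. Taf5, a subunit with WD40 repeats, had a signal of 652 and ranks of 867, 554 and 755 in replicates 1, 2 and 4. At Taf2, which contacts the initiator element, it was 571, with ranks of 1414, 625 and 768. Taf4, a scaffold TAF with a histone fold, reached 543 and ranks of 866, 1143 and 989. The lowest of these ranks, 1414, is far inside the list of 30000 regions, and the order of the 3 genes changed between replicates.

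Taf1 (FBgn0010355), the largest TAF and the scaffold of TFIID, had a signal of 519 at rank 1062. Its replicate ranks were 968, 1769 and 971, with replicate 2 the lowest. The summit lay 127 bp downstream of the start, in a coding exon of the gene, and no other gene started within 500 bp. Taf7, which binds Taf1, followed with a signal of 380 and ranks of 1888, 1656 and 1867. The 2 remaining bound TFIID genes were Taf13 and Taf8, at 276 and 171 (named after their values were seen).

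Tbp, which encodes the TATA-binding protein itself, was not bound. Its pooled region had a signal of 108 at rank 8629. In replicates 1, 2 and 4 the signal was 26.8, 26.2 and 61.4, at ranks 14020, 7538 and 7828. None of these ranks fell within the first 5862. The other unbound TFIID genes with a pooled region had signals from 41.5 to 93.9. Taf10 and Taf10b, neighbouring paralogues transcribed in opposite directions, share a single such region at 74.8 (named after their values were seen).

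**Figure D2:**
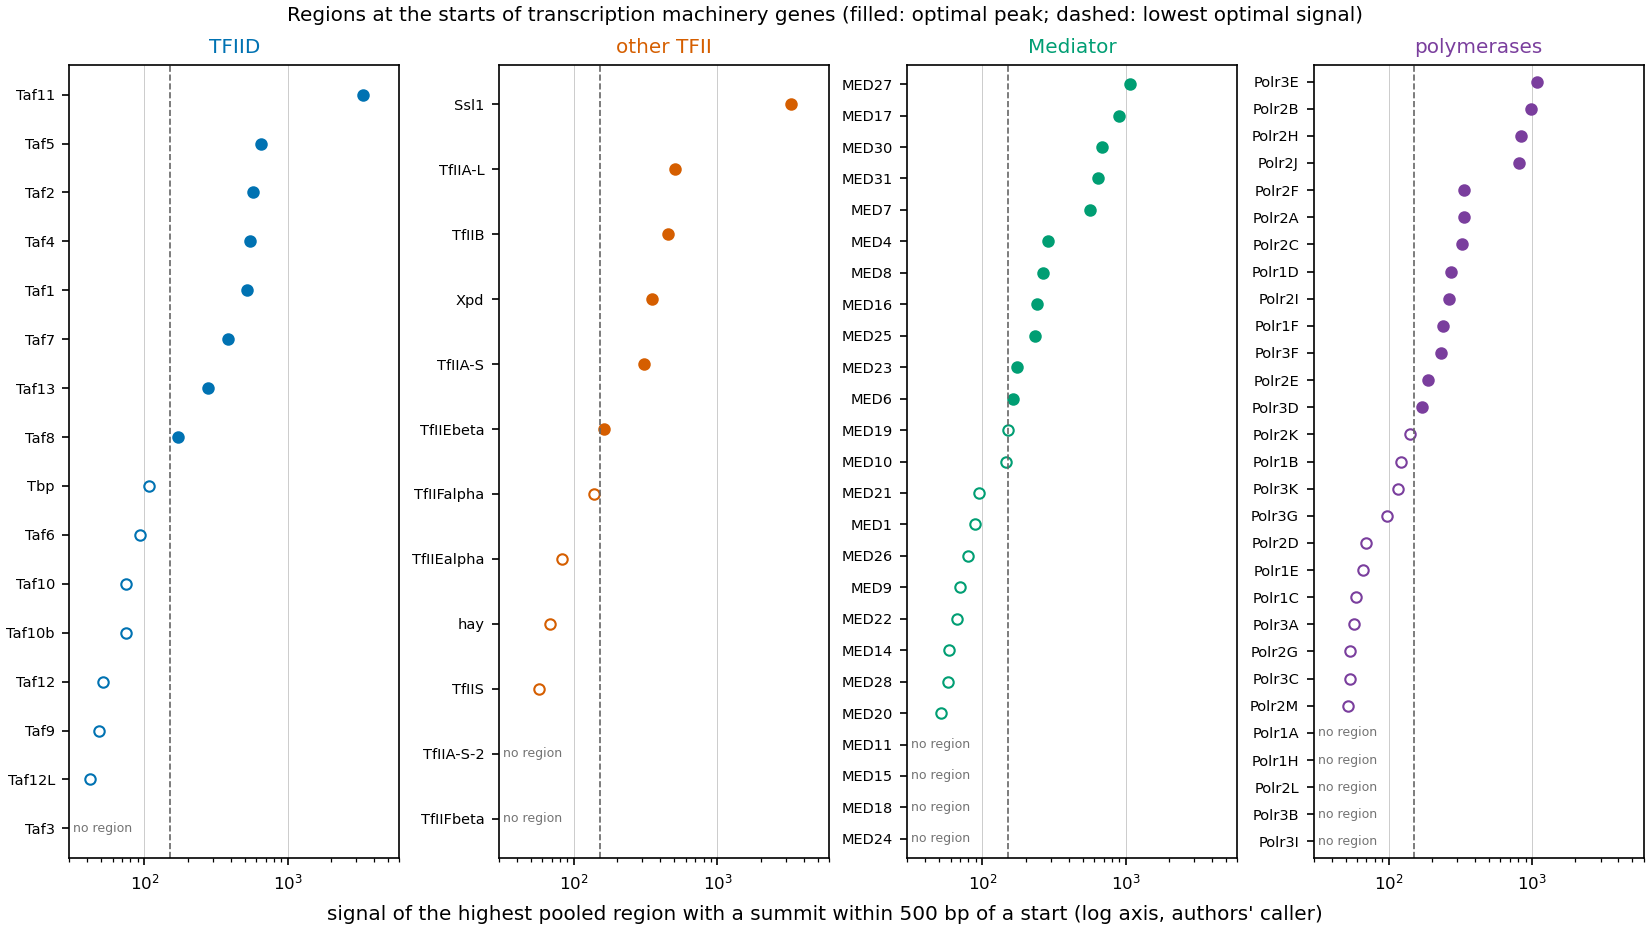
Signal of the highest pooled region with a summit within 500 bp of a start, on a log axis, for the machinery genes by complex, with 1 gene left out. Filled circles are optimal peaks, open circles weaker pooled regions, and the dashed line is the lowest optimal signal (151). Taf11 at 3370 and Ssl1 at 3233 stand above every other gene, the next being Polr3E at 1084.

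Among the other TFII factors, Ssl1 stood apart in the same way as Taf11. Ssl1 (FBgn0037202), a TFIIH subunit that supports the Xpd helicase, had a signal of 3233 at rank 11. Its replicate signals were 1236, 659 and 1341, at ranks 8, 13 and 11. Its summit (chromosome 3L, 22878902, in a region from 22878682 to 22879125) lay 187 bp upstream of the Ssl1 start. It lay inside the 5′ UTR of Chro, the gene of the chromodomain protein Chromator, 82 bp from the Chro start. The peak is therefore nearer to Chro than to the machinery gene.

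The next signals were 504 at TfIIA-L, which encodes the large TFIIA precursor, and 451 at TfIIB, whose product bridges TBP and the polymerase. TfIIA-L ranked 1376, 747 and 1168 in replicates 1, 2 and 4. TfIIB ranked 1136, 1182 and 1904. The TfIIA-L peak lay in an intron of the gene, 143 bp upstream of an internal start and 105 bp from the start of pll, which encodes the Toll-pathway kinase Pelle. At TfIIB the summit was 315 bp from the gene and 105 bp from Bug22. A second, lower optimal peak (signal 207) lay 87 bp upstream of TfIIB and 333 bp from Bug22.

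Xpd, the TFIIH helicase named after the human repair disorder, had a signal of 347 and ranks of 3091, 1814 and 2339. TfIIA-S, the small TFIIA subunit, had 306 and ranks of 2963, 4492 and 2620. TfIIEbeta, the small TFIIE subunit, was the weakest bound gene of the set at 162. Its ranks were 7618, 5938 and 4502, so it fell outside the first 5862 in replicates 1 and 2. Both TFIIF genes were unbound: TfIIFbeta had no pooled region, and TfIIFalpha lay just outside the optimal list at 138 (rank 6535). The latter, and hay at 68.3, which encodes the XPB helicase, were named after their values were seen.

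Mediator had no peak as high as those at Taf11 and Ssl1. MED27 led with a signal of 1075 at rank 245. In replicates 1, 2 and 4 it had signals of 368, 272 and 435, at ranks 230, 167 and 333. The summit (chromosome 3R, 5655003, in a region from 5654806 to 5655197) was almost midway between MED27 (FBgn0037359), 136 bp away, and elm, 142 bp away. MED17, a head-module subunit that binds the polymerase, followed at 894 with ranks of 374, 223 and 490.

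Lower Mediator peaks were ordered as follows. MED30, a subunit of animal Mediator, had a signal of 677 and ranks of 578, 712 and 685. MED31, in the middle module, had 640 and ranks of 786, 683 and 850. Its partner MED7 had 561 and ranks of 884, 897 and 980. These 3 genes kept their relative order in replicates 1 and 4, while MED31 ranked above MED30 in replicate 2. MED4, another middle-module gene, was lower at 288 with ranks of 2585, 2504 and 3166. The remaining bound Mediator genes ranged from 164 at MED6 to 266 at MED8 (named after their values were seen). Of the 14 unbound Mediator genes, 10 had a pooled region, between 51.6 and 150.

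In the polymerase set the highest peaks came from both polymerase II and polymerase III. Polr3E (FBgn0028402), a subunit specific to polymerase III, had a signal of 1084 at rank 242. Its replicate signals of 369, 221 and 488 gave ranks of 228, 268 and 253. Polr2B, which forms the active centre together with Polr2A, had 980 and ranks of 251, 301 and 358. Polr2H, shared by all nuclear polymerases, had 832 and ranks of 319, 317 and 598.

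Polr2J, a polymerase II subunit that pairs with Polr2C, had a signal of 809 and ranks of 434, 338 and 528. Polr2F, another shared subunit, had 335 and ranks of 2741, 2262 and 2222. The largest subunit of polymerase II, Polr2A, which carries the C-terminal repeat domain, was bound but not prominent. Its signal was 334 at rank 2148, with 107, 60 and 157 in replicates 1, 2 and 4 and ranks of 2177, 2716 and 2201. The 2 bound genes with a Polr1 symbol, Polr1D and Polr1F, had signals of 270 and 240 (named after their values were seen).

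Over all 39 bound genes the median signal was 347, beside 335 for all bound protein-coding genes. By complex the medians were 531 for TFIID, 399 for other TFII factors, 288 for Mediator and 330 for the polymerases. The ratio of the median of bound machinery genes to that of all bound genes was 1.06, 1.06 and 1.04 in replicates 1, 2 and 4 (mean 1.05 ± 0.0149, SD, n = 3). The machinery genes were thus bound in a larger share, with peaks of about the height found at other bound genes. A rank within the first 1000 was held by 14 of them (35.9%, against 27.2% of all bound genes). Within the first 100 were 2 of the 39, Taf11 and Ssl1, beside 120 of all 3658 bound protein-coding genes.

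Ranks of the bound genes varied between libraries to different degrees. The highest replicate rank number was a median of 1.59 times the lowest, with a range from 1.11 to 4.47. Bound in the restricted list of every replicate were 34 of the 39 genes (87.2%), beside 77.7% of all bound protein-coding genes. The optimal list was itself made from the agreement of replicates. Another 3 fell outside in 1 replicate and 2 in 2 replicates. Polr2E, a subunit shared by the polymerases, had the widest spread, at ranks 3607, 16111 and 5195 (named after its values were seen).

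**Figure D3:**
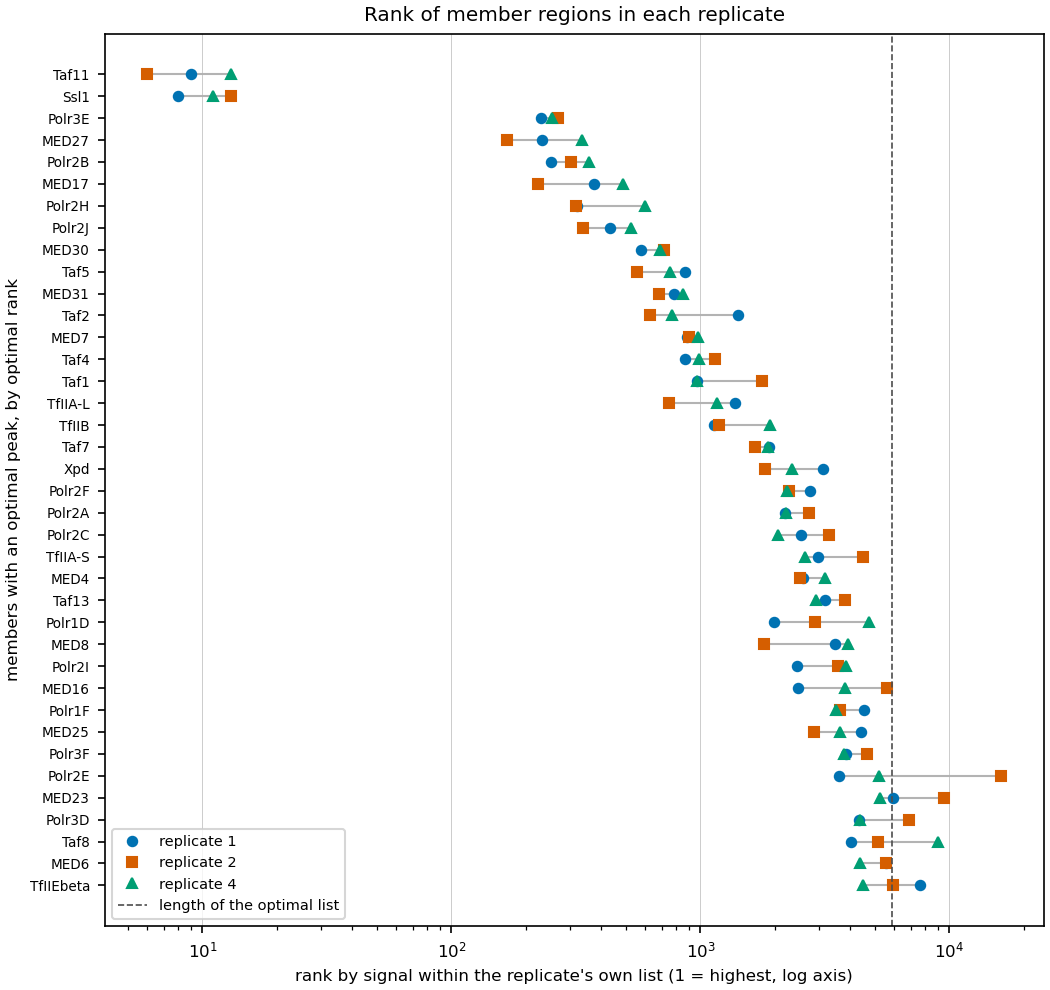
Rank by signal within each replicate's own list, on a log axis with 1 the highest, for the bound genes in order of optimal rank, with 1 gene left out. Symbols are replicates 1, 2 and 4, grey lines join them, and the dashed line marks the length of the optimal list (5862). Taf11 and Ssl1 lie between ranks 6 and 13 in all 3 libraries, and Polr2E reaches 16111 in replicate 2.

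Genes near the edge of the optimal list show how the count depends on it. The lowest optimal signal was 151. Just inside lay TfIIEbeta at 162, MED6 at 164, Taf8 at 171, Polr3D at 172 and MED23 at 174 (all named for this position, after their values were seen). Just outside lay MED19 at 150, MED10 at 145, Polr2K at 141 and TfIIFalpha at 138. Bound in at least 1 restricted replicate list though not in the optimal one were 6 genes, namely TfIIFalpha, MED19, MED21, MED26, Polr1B and Polr2K. TfIIFalpha, MED19 and Polr2K are thus in both groups. Neither group was counted over all protein-coding genes, so neither is shown to be particular to the set.

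Most machinery genes start close to another gene. A divergent start, that is, the start of a gene on the other strand pointing away, lay within 1000 bp upstream of 59 of the 83 (71.1%), against 39.3% of all protein-coding genes. Of these 59 genes, 34 were bound (57.6%, interval 44.1 to 70.4), beside 46.3% of all protein-coding genes with such a neighbour. Of the 24 without one, 5 were bound (20.8%, 7.13 to 42.2), beside 13.2% of all such genes. In both classes the background share falls inside the interval of the machinery genes. Gene arrangement therefore moved together with the count, and its part in the count was not tested. In the restricted lists of replicates 1, 2 and 4, 34, 34 and 34 genes with a divergent neighbour were bound, and 4, 5 and 7 without. All protein-coding genes were not split this way in the replicate lists, so these counts have no background share beside them.

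**Figure D4:**
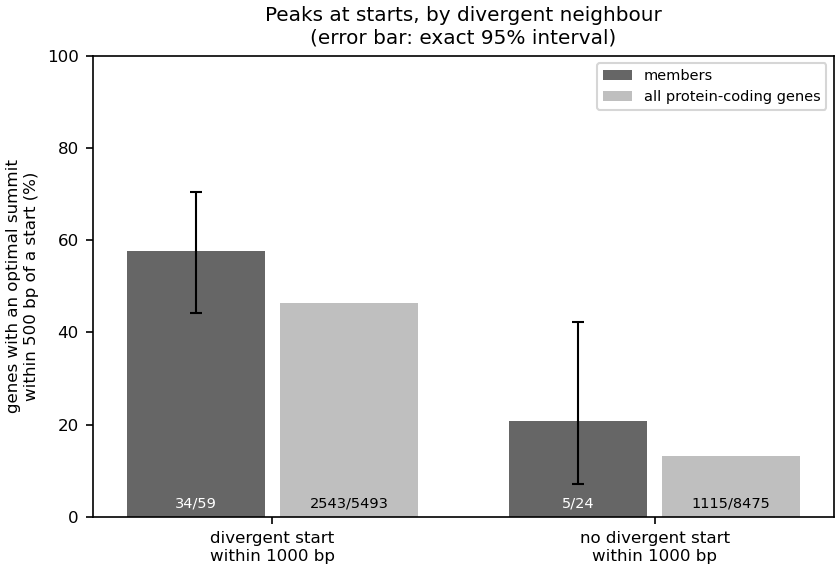
Share of genes with an optimal summit within 500 bp of a start, in percent, split by whether a divergent start lies within 1000 bp. Dark bars are the machinery genes with exact 95% intervals and light bars all protein-coding genes, with counts at the foot. Both kinds of gene are bound more often with a divergent neighbour (57.6% and 46.3%) than without (20.8% and 13.2%).

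At the highest peak of each bound gene, 32 of 39 summits (82.1%, interval 66.5 to 92.5) also lay within 500 bp of a start of another gene. All 32 had such a start on the other strand, counted without regard to whether it pointed away. Over all bound protein-coding genes the shares were 64.5% with any other start and 61.7% with one on the other strand. The other gene's start was the closer one at 20 of the 39 (51.3%, against 31.1%). A second optimal peak lay within 500 bp of a start at 7 bound genes (17.9%, beside 17.8% of all bound protein-coding genes). At TfIIB, MED25 and Polr3E this lower peak was nearest to the machinery gene, while the highest peak was nearer to the partner. At MED31 it lay 7 bp from the start shared with slx1. When every optimal peak was taken and credited only to the nearest start, 23 machinery genes were bound (27.7%, interval 18.4 to 38.6), against 19.3% of all protein-coding genes, a share inside that interval. Peaks between 2 starts cannot be assigned to 1 gene of a pair. The 7 bound genes with no other start within 500 bp of the highest summit were Taf1, Taf4, Taf8, TfIIA-S, TfIIEbeta, Polr2E and Polr2F. Of these, Taf4 and Taf8 do have a divergent start within 1000 bp.

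The partners have varied functions, and distances are given for the highest peak unless stated. At TFIID genes they were und, CalpB (a calpain protease, 25 bp from the summit against 104 bp for Taf2), Pex6 (a peroxisomal ATPase, 170 bp against 131 bp for Taf5) and EMC1 (of the ER membrane complex, 199 bp against 76 bp for Taf7). Xpd shares its promoter with LSm1, an mRNA decay factor, 241 bp from the summit against 88 bp. At Mediator genes the partners were CG12321 at MED17 (182 bp against 183 bp), the translesion polymerase gene Rev1 at MED30 (87 bp against 187 bp) and the condensin gene Cap-H2 at MED7 (220 bp against 58 bp). MED31 had both CG9775, 81 bp from the summit, and slx1, a nuclease gene whose annotated start coincides with its own at 206 bp, while its second peak (signal 188) lay 7 bp from that shared start. MED4 was paired with the antisense RNA gene asRNA:CR43470, 28 bp from the summit.

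At polymerase genes the partner was CG10584 at Polr3E (225 bp against 240 bp), 140up at Polr2B (112 bp against 131 bp), CG11247 at Polr2H (21 bp against 147 bp) and CG15141 at Polr2J (170 bp against 65 bp). The second peak at Polr3E (signal 187) lay 29 bp from its own start and 436 bp from CG10584, and that at Polr2J (signal 359) lay 266 bp from its own start and 31 bp from CG15141. CG11699 lay 150 bp from the summit at Polr2A, which was 145 bp away. Among the highest peaks, those at Polr3E, Polr2B and Polr2A lay at nearly equal distances from both starts.

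Summits of the highest peak lay mostly upstream of the nearest start of the machinery gene. At 37 of the 39 (94.9%) the summit was upstream of the nearest start of the gene, against 87.8% of all bound protein-coding genes. The median position was -131 bp, beside -141 bp for all. Within 250 bp upstream lay 34 of the 39 (87.2%), against 67% of all. The 2 summits downstream of the nearest start were those of Taf1 at 127 bp and MED23 at 68 bp. At Taf4, Taf7, TfIIA-L, MED6, Polr1D and Polr3F the summit lay inside the gene, upstream only of an internal start. The Taf4 summit was 483 bp downstream of the 5′-most start. With only 5′-most starts used, 86.1% of the summits counted were upstream. By annotation, 24 summits were intergenic, 8 were in a 5′ UTR of the gene or its neighbour, 4 in an intron, 1 in a coding exon (Taf1) and 2 in an exon of an antisense RNA. No machinery gene had an optimal summit inside its body farther than 500 bp from every start. Neither this count nor the split by annotation was made over all protein-coding genes, so neither is shown to be particular to the set.

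**Figure D5:**
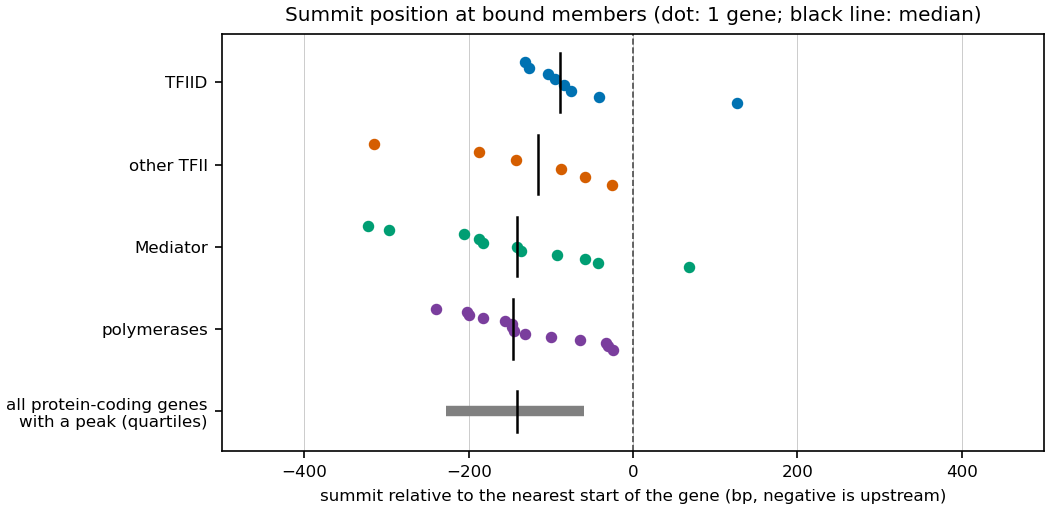
Position of the optimal summit relative to the nearest start of the gene, in bp with negative values upstream, for the 39 bound genes by complex. Dots are genes, black lines medians, and the grey bar spans the quartiles of all bound protein-coding genes (-228 to -60 bp). Of the 39 summits, 37 are upstream, with medians from -146 bp in the polymerases to -89.5 bp in TFIID.

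The promoters of machinery genes, taken from 250 bp upstream to 50 bp downstream of the 5′-most start, were searched for 6 words on both strands. The core of the Motif 1 element, GGTCACAC, was in 21 of 83 (25.3%), against 7.69% of all protein-coding promoters. It occurred in 8 of the 39 bound genes (20.5%) and 13 of the 44 others (29.5%), so its share was not higher among the bound. TATCGATA, the element bound by DREF, was in 13 of 83 (15.7%, against 9.36%), with 4 of 39 bound and 9 of 44 others. GAGAG was in 19.3%, against 29.7%, and TATAAA in 44.6%, against 45.8%. CAGCTG was in 18.1%, against 17.6%, and TGCGGATG in none, against 0.759%. A divergent partner shares this sequence, and a match is not evidence of a bound factor.

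Positions of the Motif 1 core are given for the middle of the word. The core had a median position 11 bp downstream of the start in the bound genes, with a range from -4 to 22 bp. In the others the median was 10 bp, with a wider range from -195 to 27 bp. Over all protein-coding promoters that hold it the median was -5 bp. At Polr3E, which holds it at 4 bp, the highest CG13775 peak lay at -240 bp and the second at -29 bp. The promoters below show the word at 2 bound genes and at MED15 and MED24, which had no pooled region within 500 bp of a start. The nearest optimal summit lay 516 bp from the MED15 start, just beyond that limit, and 4394 bp from the MED24 start. Each runs 5′ to 3′ along the gene from 120 bp before its start, on the plus strand of dm6, with the searched words in capitals. They lie at chr3R:6646769-6646918 (Taf1), chr3L:21031705-21031854 (Polr3E), chr2L:472893-473042 (MED15) and chr3L:8191150-8191299 (MED24).
Taf1: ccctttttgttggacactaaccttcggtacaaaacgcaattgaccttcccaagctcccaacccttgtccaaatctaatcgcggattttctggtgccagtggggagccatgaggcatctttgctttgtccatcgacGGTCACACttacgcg
Polr3E: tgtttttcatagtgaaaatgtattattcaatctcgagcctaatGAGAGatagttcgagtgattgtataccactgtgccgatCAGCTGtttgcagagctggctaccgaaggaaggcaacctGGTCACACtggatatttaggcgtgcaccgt
MED15: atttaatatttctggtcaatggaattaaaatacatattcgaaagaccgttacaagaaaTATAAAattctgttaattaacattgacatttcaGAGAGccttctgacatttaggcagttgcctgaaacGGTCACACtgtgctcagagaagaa
MED24: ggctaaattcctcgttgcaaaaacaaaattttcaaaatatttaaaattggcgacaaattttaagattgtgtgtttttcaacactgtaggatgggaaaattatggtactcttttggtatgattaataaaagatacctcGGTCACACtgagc
The middle of the Motif 1 core lies at 19 bp in Taf1, 4 bp in Polr3E, 10 bp in MED15 and 21 bp in MED24. Bound and unbound examples thus hold it at a like distance.

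At the summits themselves, all 46 optimal peaks at starts of the 39 bound genes were searched within 50 bp. TATAAA was present at 10 (21.7%, against 21.3% of all optimal peaks at protein-coding starts) and GAGAG at 4 (8.7%, against 8.28%). GGTCACAC was present at 2 (4.35%, against 2.25%), the MED23 peak and the second Polr3E peak. CAGCTG was also present at 2 (4.35%, against 5.33%), the highest TfIIEbeta peak and the second Polr3E peak. TATCGATA was present at 1, the second MED25 peak (2.17%, against 4.36%). TGCGGATG was at none, against 1.01%, and the interval of a count of 0 in 46 reaches 7.71%. Each background share falls inside the interval of the machinery genes' share. The windows of the 39 highest peaks had a median GC content of 31.7%, with a range from 13.9% to 50.5%, against a median of 33.7% at the peaks of protein-coding starts. Polr2B, printed above, holds the lowest value.

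Genes that act with this machinery but carry other symbols were counted from a list. Of 53 matched, 31 were bound (58.5%), beside the 26.2% of all protein-coding genes. Of the remaining TFIIH subunits 5 of 7 were bound, led by mrn, the p52 subunit, with a signal of 683. Of the SAGA coactivator 10 of 15 were bound, with Gcn5, its acetyltransferase, at 849 and wda at 848. Elongation and pausing factors gave 13 of 18, with the pausing-complex genes Nelf-E at 1182 and TH1 at 697. Bdp1 at 1802 and Brf at 1112, which encode subunits of TFIIIB, were bound, and Tif-IA, an initiation factor of polymerase I, was not. Among the 4 Mediator kinase module genes only skd was bound, at 581. The genes named in this paragraph were picked after their values were seen, mostly for a high signal. Bound genes of the list reached down to 152 at Spt5.

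The genes of TAF variants of the testis and of TBP-related factors were without optimal peaks. None of the testis genes can, nht, mia and sa was bound or had a pooled region, 0 of 4. Taf12L, a testis TAF12 variant counted above with TFIID and named after its values were seen, was not bound and had a pooled signal of 41.5. Neither Trf nor Trf2, which encode TBP-related factors, was bound, with pooled signals of 51.6 and 122. Trf shares its region with MED20. Over all protein-coding genes only 26.2% were bound and 54.0% had a pooled region. These families are small, so the absence of peaks is not shown to be particular to them. No difference from the other families was tested.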

How the data were processed

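The peak lists came from 3 libraries of CG13775-GFP embryos. The authors deposited, per the file headers and labels, for assembly dm6 a relaxed region list per replicate and for the pooled libraries, and an optimal list after the IDR comparison of replicates; the signal of each region is the authors' value, and its scale, the peak caller and the control are not given in the sources used here. The dm3 lists were not used. Coordinates were matched to Ensembl release 115 starts and RefSeq Release 6 sequence with Python 3.11.15, pandas 2.3.3, numpy 2.4.6 and scipy 1.17.1. A summit counted for a gene within 500 bp of any start; signals, ranks and positions are those of the highest such peak, unless a second is named; restricted replicate lists kept the 5862 regions of highest signal. Placement was tested on simulated data.

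Named genes were, per complex, the 6 bound ones of highest signal, with Tbp, Taf1 and Polr2A, all genes without a pooled region and the partners at named summits; others are marked in the text. The values of 1 bound gene that enters the counts are not reported here. The genes, lists and words were chosen with earlier results of these data known. The related list matched 53 symbols and 6 matched none as spelled, some of them synonyms of genes already counted. Replicates are labelled biological, without further detail. Alternatives varied the distance, peak set, start rule and replicates.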

Additional observations from a re-analysis of the deposited data

How the results depend on the processing

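With each optimal peak credited only to the nearest start, bound genes fell to 23 in all, 5 in TFIID, 6 in Mediator and 8 in the polymerases. With the peak interval required to overlap the start, TFIID had 5. Among the 2931 optimal peaks of highest signal, Mediator had 6 and the polymerases 9, and 2292 protein-coding genes were bound. The median signal of bound genes, 347, became 341 within 250 bp, 543 among these 2931 peaks, 478 with peaks supported in every replicate, 325 with overlap, 265 with the nearest start and 364 with the 5′-most start. The cause of these shifts was not tested, beyond the smaller set of 2931 peaks. The other counts stayed within 1.5 times. Averages over pairs of restricted replicate lists, leaving out each replicate in turn, ranged from 38.5 to 40 bound genes in all, 7.5 to 8 in TFIID, 5.5 to 6.5 in other TFII factors, 11 to 12 in Mediator, 13 to 15 in the polymerases and 3522 to 3690 over all protein-coding genes. The share of summits upstream ranged from 86.1% to 97.1% and that of shared starts from 69.6% to 88.2%. No paired analysis was possible because the libraries form a single group. Depth, the control and an untagged line were not analysed here, so background at open promoters was not measured.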
